A study of Mus musculus with 8 samples.

Results

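Hepatic genes of glucose entry, fructose use and glycolysis were compared between control and POMCMfn2KO mice. The set was defined as every probe set that the platform annotation gives to Gckr, Slc2a2, Pfkl, Pfkfb1, Pfkfb3, Pklr or Khk. It held 11 of the 45101 probe sets on the array, from 6 of the 7 genes; Pfkfb1 has no named probe set in the annotation used and was not analysed here. RNA came from whole liver of 3 control mice, with genotype WT, and 5 POMCMfn2KO mice, 1 array per numbered sample, all aged 6 weeks, on a mixed C57Bl/6J, FVB/N and 129 background and fed chow freely. From general knowledge of the published line, and not from the labels, the mitochondrial fusion gene Mfn2 is deleted in hypothalamic neurons that make pro-opiomelanocortin. Such a deletion cannot be checked in liver RNA. The labels name neither the Cre driver nor the alleles of the controls, and give no sex, time of collection or feeding state at collection. The series title concerns glucose production by the liver, and the comparison asks how genes that take up and break down sugar differ in POMCMfn2KO liver.

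As background, glucose crosses the hepatocyte membrane in both directions through GLUT2, the product of Slc2a2. Inside the cell it is trapped as glucose 6-phosphate, a step that the product of Gckr, a regulatory protein, restrains. Phosphofructokinase commits the sugar to glycolysis, under the control of fructose 2,6-bisphosphate, which the PFKFB enzymes make and break down, and liver pyruvate kinase catalyses the last step of the pathway. Fructose enters below phosphofructokinase through ketohexokinase, the product of Khk. The Pklr gene is the classic target of ChREBP, a transcription factor that responds to carbohydrate and binds a paired E-box, the carbohydrate response element.

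Promoter sequences are shown for 2 genes that fell, Pklr and Khk, because their windows held a match to a carbohydrate response element or to a single E-box. Each is the 250 bases before an annotated RefSeq start, 5′ to 3′, build GRCm38.p6, plus strand, with motif matches in capitals. The Pklr window is chr3:89136373-89136622, at the second of 2 annotated starts, and the Khk window is chr5:30921309-30921558.
Pklr: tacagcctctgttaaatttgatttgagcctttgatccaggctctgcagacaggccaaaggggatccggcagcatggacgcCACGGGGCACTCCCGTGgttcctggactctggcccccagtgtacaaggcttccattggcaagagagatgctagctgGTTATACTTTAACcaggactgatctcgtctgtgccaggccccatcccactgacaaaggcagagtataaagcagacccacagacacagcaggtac
Khk: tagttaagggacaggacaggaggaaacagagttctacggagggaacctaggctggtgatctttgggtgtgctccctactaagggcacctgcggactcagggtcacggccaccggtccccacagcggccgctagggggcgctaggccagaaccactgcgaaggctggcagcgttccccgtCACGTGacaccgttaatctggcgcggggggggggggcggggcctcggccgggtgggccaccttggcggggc
In the Pklr window the first capitals match a carbohydrate response element, spelled as CACGNG and CNCGTG with 5 bases of any kind between them, 170 to 154 bases before the start. The second capitals match the palindrome of the hepatic factor HNF1, spelled as GTTA and TAAC with 5 bases of any kind between them, 94 to 82 bases before it. In the Khk window the capitals are an E-box, CACGTG, 71 to 66 bases before the start. Both strands were searched, each motif reads the same on both, and the motifs did not overlap in these windows. Of 32851 RefSeq windows of this length, 0.0396% held the first motif, 0.307% the second and 6.02% the E-box. The motifs were chosen with the Pklr window in view. The windows of Slc2a2, Gckr, Pfkl and Pfkfb1 and the first start of Pklr held none of these letters; 1 of 2 windows of Pfkfb3 held an E-box.

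All values below are log2 levels as deposited, and changes are log2 differences, POMCMfn2KO minus control, with means given ± SD for n = 3 controls and n = 5 POMCMfn2KO. A gene is represented by its brightest probe set, and p-values are from limma with Benjamini-Hochberg adjustment over 11986 genes, with a threshold of 0.05. Rose, fell and changed are used of genes past that threshold. The labels number the samples of each group and do not say that each is a separate animal; the p-values measure only the spread between these samples, which may be technical, and the samples are called mice here.

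The 8 arrays had medians over all probe sets between 5.79 and 5.81. Hepatocyte markers were bright in every array, albumin (Alb) lying between 15.24 and 15.28 in controls and between 15.24 and 15.27 in POMCMfn2KO. Of the 9 tested markers of this list 1 rose, Cps1 (0.31, limma adjusted p = 0.0264); Tat (0.44), Tdo2 (0.19) and Apoa1 (0.12) also lay wholly above the controls and Ttr (-0.11) wholly below, none of these past the test. POMCMfn2KO 2 and 3 stood apart in pancreatic acinar transcripts: 14 of 20 listed markers were named, and their mean level was 10.42 and 10.57 in these arrays against 6.04 to 6.08 in controls and 6.01 to 6.28 in the other POMCMfn2KO arrays. The same arrays had the highest mean of 6 skeletal muscle markers, 6.92 and 7.10, against at most 6.27 in the other POMCMfn2KO arrays and 5.65 to 6.12 in controls. Results are therefore also given without these arrays. Islet markers, 9 of 10 named, had mean levels of 5.41 to 5.50 in controls and 5.36 to 5.54 in POMCMfn2KO, and Ins2 reached 7.22 and 7.25. Liver Mfn2 was 9.88 ± 0.08 and 9.61 ± 0.24 (-0.27, limma adjusted p = 0.169).

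Of the 6 measured genes, Slc2a2, Gckr, Khk and Pklr fell in POMCMfn2KO liver, and Pfkl and Pfkfb3 did not pass the test. The falls were between 1.46-fold and 1.78-fold. In each of the 4, every POMCMfn2KO value lay below every control value. Among all genes tested, 10.9% fell and 7.02% rose, and 16.5% had POMCMfn2KO values all below the controls. The median change of the 6 genes was -0.55, against -0.02 over all genes tested. In whole liver, less RNA per cell cannot be told apart from fewer cells of a type.

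Markers of other liver cells also differed between the groups. The neutrophil and monocyte list, 6 of 8 markers named, had mean levels of 6.08 to 6.14 in controls and 5.48 to 5.65 in POMCMfn2KO, and S100a9 fell (-1.56, limma adjusted p = 1.27e-05). The lymphocyte list, 8 of 9 named, had 5.71 to 5.99 and 5.45 to 5.55, and Ighm fell (-1.87, adjusted p = 0.000549). In both lists the mean of every POMCMfn2KO array lay below the controls, but not every marker did. S100a9 and the untested S100a8 (6.18 to 6.45 in controls, 4.36 to 5.24 in POMCMfn2KO) lay wholly below. Ngp, Camp, Mmp8 and Cxcr2 overlapped between the groups. Among the lymphocyte markers, Ighm and Cd3e (7.04 to 7.16 and 6.90 to 7.03) lay wholly below. Cd3g, Cd79a, Cd79b, Ms4a1, Nkg7 and Gzma overlapped. All 10 Kupffer cell and macrophage markers were named, with 9.26 to 9.58 and 8.74 to 9.48, and 1 fell, Timd4 (-0.69, limma adjusted p = 0.00405). All 9 endothelial markers were named, with 8.15 to 8.35 and 8.20 to 8.61, and 2 rose, Stab2 (0.55, adjusted p = 0.0107) and Eng (0.24, 0.0464). The part of these cell types in the falls of Slc2a2, Gckr, Khk and Pklr was not tested.

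**Figure D1:**
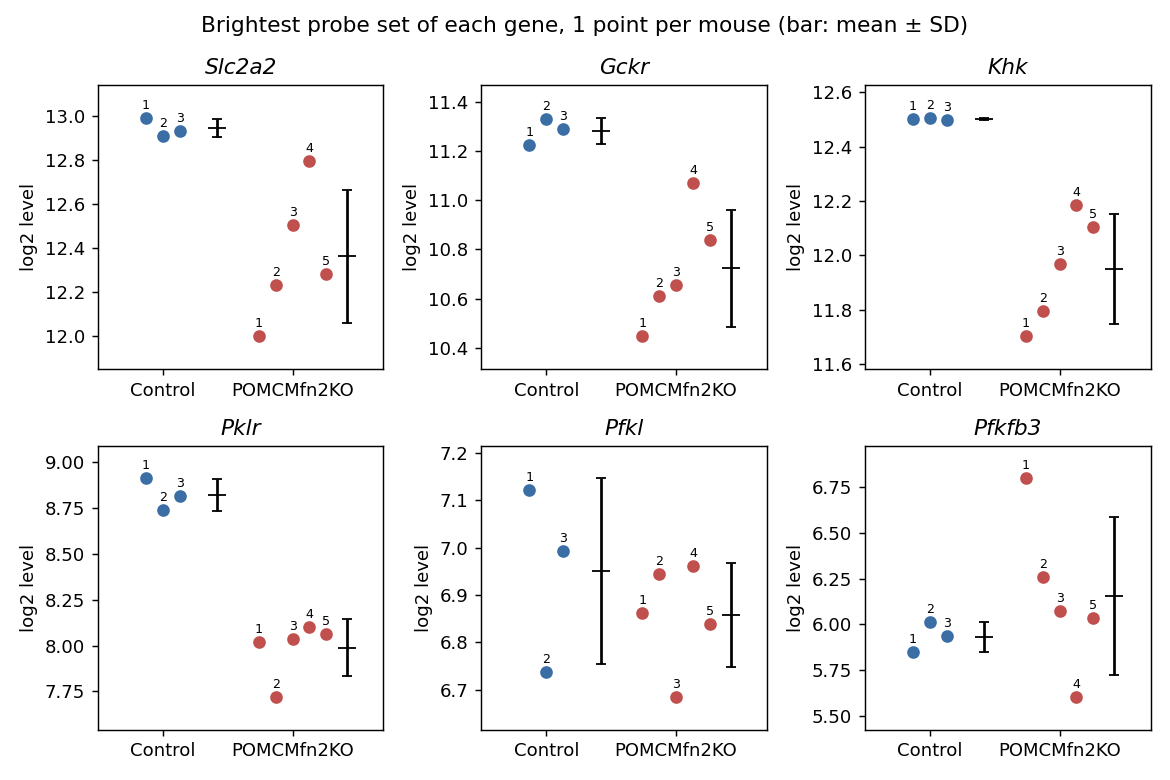
Log2 level of the brightest probe set of each of 6 genes in each mouse, controls in blue and POMCMfn2KO in red, with the replicate number beside each point and the group mean ± SD as a bar; the vertical axes differ and do not start at 0. All POMCMfn2KO points lie below all control points for Slc2a2, Gckr, Khk and Pklr, while the groups overlap for Pfkl and Pfkfb3.

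Slc2a2, the gene of the low-affinity glucose transporter GLUT2, was 12.99, 12.91 and 12.93 in controls 1 to 3 and 12.00, 12.23, 12.50, 12.80 and 12.28 in POMCMfn2KO 1 to 5. The controls lay close together, and the POMCMfn2KO mice spread over a wider range below them, with POMCMfn2KO 4 nearest to the controls and POMCMfn2KO 1 farthest. The mean fell from 12.94 ± 0.04 to 12.36 ± 0.30, a change of -0.58 with a 95% interval of -0.93 to -0.24 (limma adjusted p = 0.0305). The call was lost without control 1, 2 or 3 (adjusted p = 0.112, 0.0938 and 0.0979), without POMCMfn2KO 2 (0.0671) or 5 (0.0543), and without POMCMfn2KO 2 and 3 together (-0.58, 0.114). Tested over all non-control probe sets, Slc2a2 had a limma adjusted p of 0.0425 and lost its call in 7 of 15 alternative runs. Leaving out 1 array gave adjusted p up to 0.162 there.

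Gckr, whose product restrains glucose phosphorylation in the hepatocyte, was 11.22, 11.33 and 11.29 in the controls. In POMCMfn2KO 1 to 5 it was 10.45, 10.61, 10.65, 11.07 and 10.84, so that POMCMfn2KO 4 was again the mouse nearest to the controls. The mean fell from 11.28 ± 0.05 to 10.72 ± 0.24, by -0.56 (95% interval -0.84 to -0.28, limma adjusted p = 0.0171). The call was lost without control 1, 2 or 3 (adjusted p = 0.0595, 0.0763 and 0.0676) and without POMCMfn2KO 2 and 3 together (-0.50, 0.102). Tested over all non-control probe sets, Gckr had a limma adjusted p of 0.0232 and lost its call in 6 of 15 alternative runs. Leaving out 1 array gave adjusted p up to 0.105 there.

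Khk, the gene of ketohexokinase, which phosphorylates fructose, was almost the same in the controls, at 12.50, 12.51 and 12.50. It was 11.70, 11.80, 11.97, 12.18 and 12.10 in POMCMfn2KO 1 to 5, every value below the controls. The mean fell from 12.50 ± 0.0048 to 11.95 ± 0.20, by -0.55 (95% interval -0.80 to -0.30, limma adjusted p = 0.0103). In the test over genes Khk kept its call without any single array, with adjusted p up to 0.0496, and lost it without POMCMfn2KO 2 and 3 together (-0.50, 0.0673). In the test over all non-control probe sets, where its adjusted p was 0.0136, the call was lost without control 1, 2 or 3 (limma adjusted p = 0.0690, 0.0664 and 0.0646).

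Pklr, the gene of the pyruvate kinase of liver and red cells, showed the largest fall of the 6 genes and the smallest p. Its brightest probe set, 1438711_at, was 8.91, 8.74 and 8.82 in controls and 8.02, 7.72, 8.04, 8.10 and 8.06 in POMCMfn2KO 1 to 5. The POMCMfn2KO mice lay close together here except POMCMfn2KO 2, which was lower. The mean fell from 8.82 ± 0.09 to 7.99 ± 0.15, by -0.83 (1.78-fold, 95% interval -1.05 to -0.62, limma adjusted p = 0.000944). The call held without each single array, with changes from -0.88 to -0.77, and without POMCMfn2KO 2 and 3 together (-0.76, adjusted p = 0.00586).

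The other probe sets of Pklr gave smaller changes in the same direction. Probe set 1421259_at was 7.35, 7.46 and 7.37 in controls and 6.88, 6.96, 6.88, 7.13 and 7.02 in POMCMfn2KO, a change of -0.42. Probe set 1421258_a_at was 7.18, 7.15 and 7.18 in controls and 6.74, 6.75, 6.81, 6.76 and 6.67 in POMCMfn2KO, a change of -0.43. In a test of all 45037 non-control probe sets, where 4.12% fell and 3.22% rose, both passed (limma adjusted p = 0.00976 and 0.00275), as did the brightest one (0.000880). The call of 1421259_at was lost without control 2 (adjusted p = 0.0593) and without POMCMfn2KO 2 and 3 together (0.0756). With the 3 probe sets averaged, the change of Pklr was -0.56 (1.47-fold). Pklr is also made in red cell precursors. Of 10 erythroid markers 7 were named, with a mean level of 5.94 to 5.99 in controls and 5.67 to 6.23 in POMCMfn2KO. The highest mean was that of POMCMfn2KO 4, with the tested marker Alas2 at 10.20 against 8.15 to 8.20 in controls. Among the dim, untested markers in that mouse, Hba-a1 (4.38) and Slc4a1 (4.78) lay below every control. Ermap (5.04) and Rhag (4.39) lay above every control. The other tested erythroid markers, Klf1 (-0.47, limma adjusted p = 0.187) and Epor (-0.15, 0.135), did not pass, but had every POMCMfn2KO value below the controls, the direction of Pklr. The part of red cell RNA in the Pklr values was not tested.

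Pfkl, the liver subunit of phosphofructokinase, did not pass on any of its 3 probe sets. The brightest was 7.12, 6.74 and 6.99 in controls and 6.86, 6.94, 6.69, 6.96 and 6.84 in POMCMfn2KO, so that the values of the groups were intermingled. Its change was -0.09, with a 95% interval of -0.31 to 0.13 (limma adjusted p = 0.564), and those of the other probe sets were -0.14 and -0.08. The intervals of the other 2, in the test of all probe sets, were -0.28 to 0.01 and -0.23 to 0.06. Falls of the size seen for Slc2a2, Gckr, Khk or Pklr lay outside all 3 intervals.

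Pfkfb3, an enzyme that raises fructose 2,6-bisphosphate, was dim and variable. It was 5.85, 6.01 and 5.94 in controls and 6.80, 6.26, 6.07, 5.60 and 6.03 in POMCMfn2KO, with POMCMfn2KO 1 above and POMCMfn2KO 4 below every control. The change was 0.22 (95% interval -0.26 to 0.71, limma adjusted p = 0.517), and 0.06 without POMCMfn2KO 1. A second probe set had a mean of 5.63 over the arrays, under the filter of 5.80, and gave 0.15 (95% interval -0.09 to 0.40). In all, 6 of the 11 probe sets fell and none rose, against 7.33% called among all probe sets, and the same 6 had every POMCMfn2KO value below the controls, as 8.78% of all probe sets did, while none lay wholly above, as 8.47% did. Of the 11, 10 had a mean above 5.80.

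**Figure D2:**
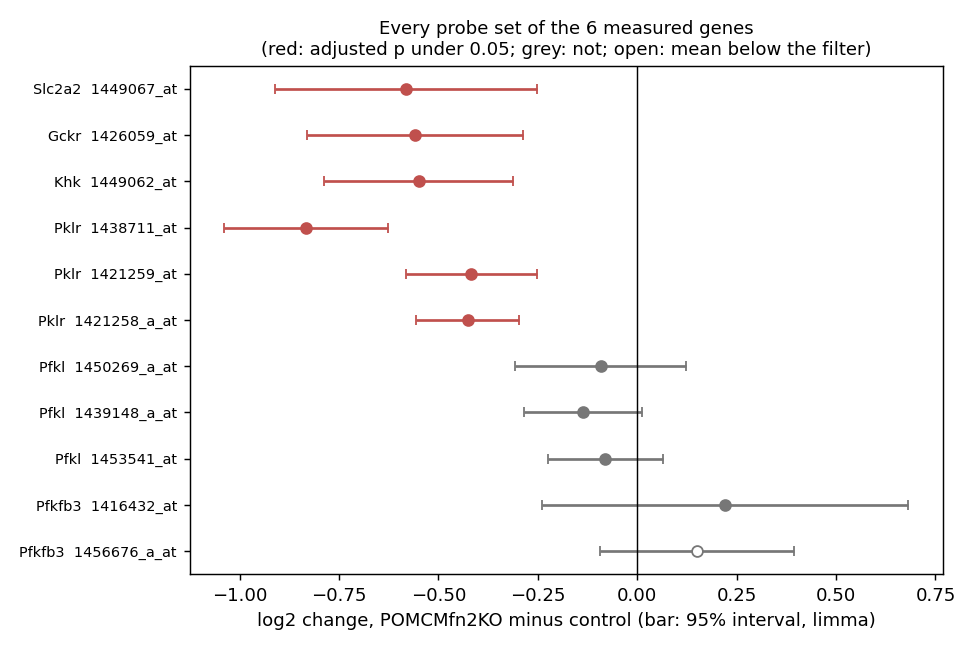
Log2 change, POMCMfn2KO minus control, of each of the 11 probe sets, with 95% intervals from limma fitted over all non-control probe sets; red marks an adjusted p under 0.05, grey the rest, and the open symbol a mean under 5.80. All 3 Pklr probe sets and those of Slc2a2, Gckr and Khk lie left of 0, and the intervals of Pfkl and Pfkfb3 span 0.

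Among the POMCMfn2KO mice, POMCMfn2KO 4 had the highest value of all 4 genes that fell, and the lowest value was that of POMCMfn2KO 1 for Slc2a2, Gckr and Khk and of POMCMfn2KO 2 for Pklr. Averaged over the 4 genes, the mice lay below the control mean by differences of -0.84, -0.80, -0.60, -0.35 and -0.57 for POMCMfn2KO 1 to 5. The gap between mice was widest for Slc2a2 and narrowest for Pklr, where POMCMfn2KO 4 lay close to POMCMfn2KO 1, 3 and 5. The acinar markers were high in POMCMfn2KO 2 and 3, which lay at -0.80 and -0.60. They were low in POMCMfn2KO 1, 4 and 5, which lay at -0.84, -0.35 and -0.57. The part of pancreatic RNA in these differences was not tested.

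**Figure D3:**
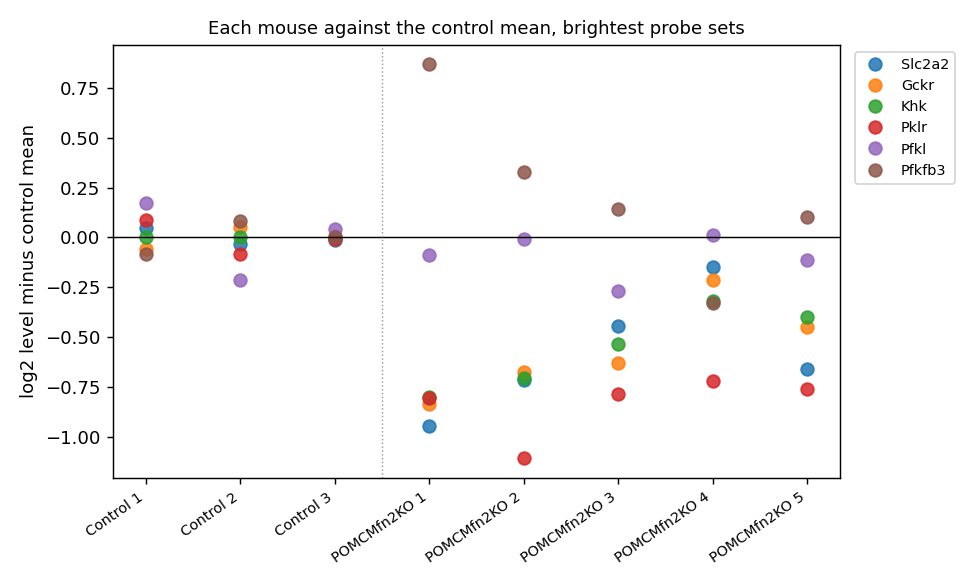
Log2 level of each of the 6 genes in each mouse minus the control mean of that gene, brightest probe sets, with controls left and POMCMfn2KO right of the dotted line. Slc2a2, Gckr, Khk and Pklr lie below 0 in every POMCMfn2KO mouse and nearest to it in POMCMfn2KO 4, and Pfkfb3 runs from above to below 0.

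By Pearson correlation over the 8 arrays, which holds the difference between the groups as well as the spread within them, the genes most like each fallen gene were themselves mostly lower in POMCMfn2KO. For Slc2a2 they were Nsdhl, Gcsh and Isoc1 (r = 0.992, 0.990 and 0.986), and with the group means removed the values were 0.992, 0.973 and 0.967. For Gckr they were M6pr, Ube2v2 and Serpina7 (r = 0.988, 0.988 and 0.987; 0.976, 0.957 and 0.954 with group means removed), and Ube2v2 did not pass the test (-0.14). For Khk they were Wbp1, Ces2e and Rdh10 (r = 0.995, 0.992 and 0.989; 0.980, 0.970 and 0.950 with group means removed). For Pklr they were Abhd17a, Hs2st1 and Ntrk2 (r = 0.990, 0.987 and 0.987; 0.872, 0.834 and 0.815 with group means removed). These genes were picked as the highest of 11986, the arrays are few, and no test is attached.

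The rest of the pathway was read from 8 lists with 100 genes, of which 86 had a named probe set and 77 were tested. Apart from the 6 genes above, 11 of 71 fell (15.5%) and 5 rose (7.04%), with a median change of -0.08. Over all genes tested 10.9% fell and 7.02% rose, so the share that rose was near the background, and the somewhat higher share that fell was not tested against it.

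In hexose transport, 2 of 11 tested genes fell and 1 rose, with a median change of -0.09. Beside Slc2a2, Slc2a9, a urate and hexose transporter, fell from 7.94 ± 0.08 to 7.36 ± 0.25 (1.49-fold, limma adjusted p = 0.0184), but its other probe set gave -0.06 and the mean of both -0.32. Slc2a3, a high-affinity glucose transporter, rose by 0.32 at a level near background (5.85 ± 0.16 to 6.17 ± 0.12, adjusted p = 0.0464), and its dimmer probe sets gave 0.16, -0.01 and -0.02. The fructose transporter gene Slc2a5 (-0.24, adjusted p = 0.150) and the glucose 6-phosphate transporter gene Slc37a4 (0.46, 0.170) did not pass; Slc37a4 was 12.65 in POMCMfn2KO 1 and 11.54 to 11.92 in the others. Slc2a9 was lost without control 1, 2 or 3 (adjusted p = 0.0786, 0.0535 and 0.0779) or POMCMfn2KO 2 and 3 together (0.0724). Slc2a3 was lost without control 2 or 3 (0.193 and 0.139), POMCMfn2KO 1, 3, 4 or 5 (0.0598, 0.0989, 0.0508 and 0.0737), or POMCMfn2KO 2 and 3 together (0.0954), and with another filter or scaling.

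Among the hexokinases and their regulators, Gckr fell and the other 4 tested genes did not pass, with a median of -0.13 over the 5; the lowest p among these were those of Adpgk (0.17) and Hk2 (-0.17). In the glycolysis list, from glucose 6-phosphate to lactate, 2 of 14 tested genes fell and none rose, with a median of -0.10. Of these 2, Pklr catalyses a step of glycolysis and Ldhd does not. Beside Pklr, Ldhd, a mitochondrial D-lactate dehydrogenase, fell from 10.89 ± 0.02 to 10.26 ± 0.19 (1.55-fold, limma adjusted p = 0.00510), and its other probe set gave -0.69. Ldhb, a lactate dehydrogenase subunit, was higher by 0.29 (adjusted p = 0.0744); in the test over all probe sets, 2 of its 3 dimmer probe sets rose (0.64, adjusted p = 0.0128, and 1.07, 0.00609) and the other gave 0.49 (0.0776). The number of genes that rose in this list, 0, was 1 with probe sets averaged, with the replicate block and without POMCMfn2KO 1 or 4, and 2 with array weights. The aldolase gene Aldoa was higher by 0.35 (adjusted p = 0.0907). Steps between phosphofructokinase and pyruvate kinase gave -0.15 for Tpi1, -0.16 for Pgam1 and 0.03 for Pgk1, none past the test. Gpi1, Gapdh and Eno1 are unnamed in the annotation and not analysed here.

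Of 7 tested genes that set fructose 2,6-bisphosphate or act against phosphofructokinase, 1 fell and none rose, with a median of -0.14. Prkaca, the catalytic subunit of the kinase that switches the liver PFKFB enzyme to its phosphatase form, fell by -0.33 (10.93 ± 0.01 to 10.60 ± 0.13, limma adjusted p = 0.0222; -0.27 on another probe set). Its call was lost without control 1, 2 or 3 (adjusted p = 0.0885, 0.0834 and 0.0767), POMCMfn2KO 3 (0.0538), or POMCMfn2KO 2 and 3 together (0.120). Prkar1a, a regulatory subunit of the same kinase, gave 0.21 (adjusted p = 0.0543) and -0.04 on another probe set of like brightness, and Fbp1, fructose 1,6-bisphosphatase, gave -0.15 (0.142).

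In fructose and polyol use, Khk fell and Akr1b8, an aldo-keto reductase, rose, from 7.25 ± 0.05 to 7.64 ± 0.17 (limma adjusted p = 0.0241), with 8 tested genes and a median of -0.09. Akr1b8 was lost without control 1, 2 or 3 (adjusted p = 0.0727, 0.0959 and 0.0909) and without POMCMfn2KO 2 and 3 together (0.0796). Tkfc, the kinase that acts on glyceraldehyde further down the fructose route, was 7.93 ± 0.11 and 7.93 ± 0.21. The aldehyde dehydrogenase genes Aldh1b1 (-1.01, adjusted p = 0.0922) and Aldh3a2 (-0.52, 0.107) did not pass; Aldh1b1 was 10.22 in POMCMfn2KO 1, above the controls, and 8.20 to 8.87 in the others.

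**Figure D4:**
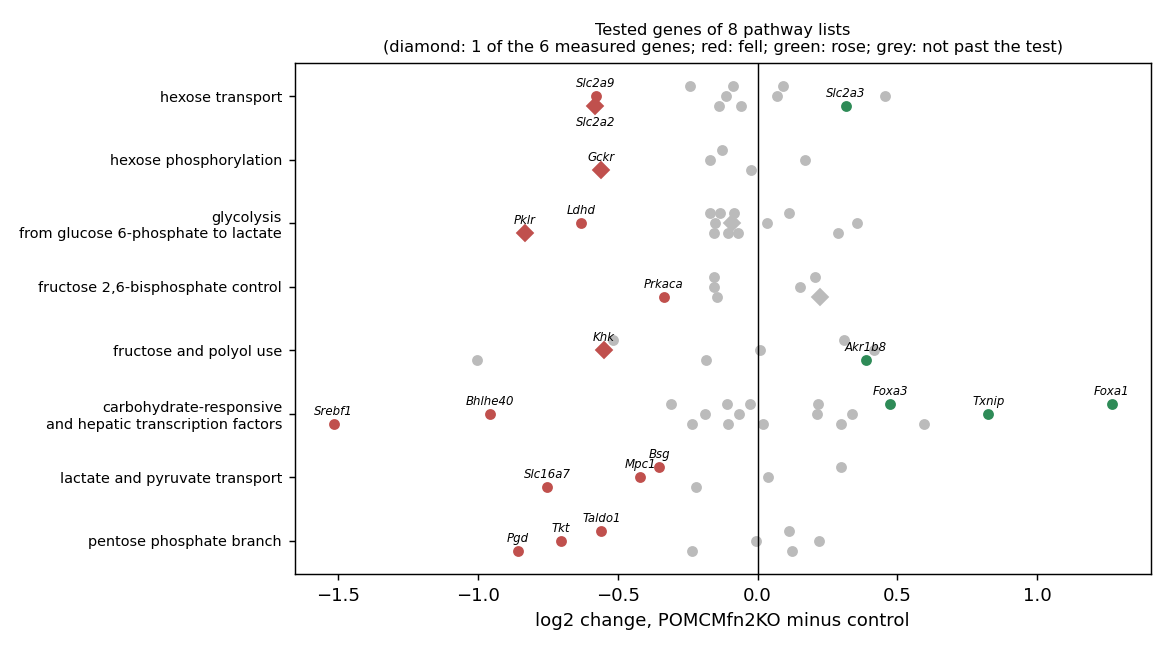
Log2 change, POMCMfn2KO minus control, of every tested gene of 8 pathway lists, 1 row per list with points offset vertically for legibility; diamonds are the 6 measured genes, red marks genes that fell, green genes that rose and grey those not past the test. Genes past the test in the glycolysis, lactate and pentose phosphate lists all lie left of 0, and the transcription factor list has genes on both sides.

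The list of carbohydrate-responsive and hepatic transcription factors, which also holds the ChREBP targets Txnip and Arrdc4, moved in both directions: of 18 tested genes 3 rose and 2 fell, with a median of -0.00. Txnip, a target of ChREBP that restrains glucose uptake, was 9.69, 9.44 and 9.58 in controls and 10.35, 10.34, 10.40, 10.50 and 10.38 in POMCMfn2KO. All POMCMfn2KO values lay above the controls, and Txnip rose by 0.83 (1.77-fold, limma adjusted p = 0.000309; 0.92 on another probe set), in the direction opposite to Pklr. Arrdc4, the other ChREBP target in this list, was lower on both probe sets, the direction of Pklr (-0.31 and -0.30). Neither passed the test over all probe sets (limma adjusted p = 0.480 and 0.0759), and only the dimmer had every POMCMfn2KO value below the controls. Mlxipl, the gene of ChREBP, did not pass (9.98 ± 0.10 to 10.32 ± 0.39, 0.34, adjusted p = 0.266), being 9.72 in POMCMfn2KO 1 and 10.22 to 10.66 in the other 4. Srebf1, the lipogenic factor SREBP1, fell by -1.52 (adjusted p = 0.000182), and Bhlhe40, a clock-linked repressor, by -0.96 (0.00705).

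The forkhead genes Foxa1 and Foxa3, factors that open hepatic promoters, rose by 1.27 (7.78 ± 0.08 to 9.04 ± 0.56, limma adjusted p = 0.0144) and 0.48 (9.90 ± 0.04 to 10.38 ± 0.17, 0.0120). Foxa1 was lost without control 1, 2 or 3 (adjusted p = 0.0559, 0.0595 and 0.0646), and Foxa3 without control 2 or 3 (0.0600 and 0.0531) or POMCMfn2KO 2 and 3 together (0.0632). Usf1, an E-box factor, gave -0.23 (adjusted p = 0.05002) and Mlxip, a relative of ChREBP, 0.30 (0.111).

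Carriers of lactate and pyruvate fell where they changed, in 3 of 6 tested genes, with a median of -0.29. Slc16a7, the monocarboxylate transporter MCT2, was 11.01, 10.88 and 10.87 in controls and 10.07, 10.31, 10.08, 10.24 and 10.12 in POMCMfn2KO. It fell by -0.75 (1.68-fold, limma adjusted p = 0.000587), with all POMCMfn2KO values below the controls. Mpc1, a subunit of the mitochondrial pyruvate carrier, fell by -0.42 (adjusted p = 0.0111), and Bsg, the chaperone of monocarboxylate transporters, by -0.35 (0.0127). Slc16a11 (-0.22, adjusted p = 0.0679) and Slc16a1, the transporter MCT1 (0.30, 0.235), did not pass. Mpc1 was lost without control 1 or 2 (adjusted p = 0.0532 and 0.0552) and Bsg without the same controls (0.0680 and 0.0560), and both without POMCMfn2KO 2 and 3 together (0.0756 and 0.0815).

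In the pentose phosphate branch, which leaves glycolysis at glucose 6-phosphate, 3 of 8 tested genes fell and none rose, with a median of -0.12. The listed gene G6pdx is unnamed in the annotation and not analysed here. Pgd, 6-phosphogluconate dehydrogenase, fell from 9.77 ± 0.10 to 8.92 ± 0.14 (1.81-fold, limma adjusted p = 0.000775), and its other probe sets gave -0.88, -0.82 and -0.56. The non-oxidative enzymes transketolase, Tkt (-0.70, adjusted p = 0.00399), and transaldolase, Taldo1 (-0.56, 0.00174), also fell; Tkt gave -0.60 on a second probe set and -0.01 on a dim one. Shpk (-0.24, adjusted p = 0.0786) and Rpia (0.22, 0.107) did not pass. All 3 calls held without each single array and without POMCMfn2KO 2 and 3 together.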

How the data were processed

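The authors deposited log2 expression values per probe set for 8 arrays, made from biotin-labelled cRNA; the submitters' processing notes name RMA and the affy package, with no versions. RMA summarises probes and makes array distributions alike, which hides any overall shift, and the values carry no depth, so the number of arrays limits precision. No value was transformed again.

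The 45101 probe sets comprise 64 controls, 34945 annotated to a single gene (1 symbol), 932 to several and 9160 to none. For each of 18193 genes the probe set with the highest mean was kept; the 11986 genes whose mean reached 5.80 (the median over non-control probe sets) entered the 2-sided test of limma 3.58.1 under R 4.3.3, called at a Benjamini-Hochberg adjusted p under 0.05. All 45037 non-control probe sets were tested likewise. The fit was tested on simulated data. Sequences are from RefSeq, GRCm38.p6, and all 7 genes matched. Figures used matplotlib 3.10.9.

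The genes, lists, named genes (list members past the test, the 2 with the lowest p that did not pass, the 3 genes most correlated with each fallen gene, and Mlxipl, Txnip and Mfn2) and alternatives (filter, scaling, variance model, probe set per gene, replicate block, arrays left out) were chosen with earlier results of these data known. Any other gene in the text was picked with its values known. Deviations from the group means correlated little between same-numbered arrays (r = 0.043, 0.037 and -0.033 for numbers 1 to 3), and the numbers were not taken as pairs. The highest r of each control with a POMCMfn2KO array of another number was 0.039, 0.020 and 0.054. Controls 1 and 2 thus had their highest r with their own number, and control 3 did not. So few correlations cannot exclude a pairing.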

Additional observations from a re-analysis of the deposited data

Results flagged for a closer look

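In 57 groups of 5 POMCMfn2KO values, 4 had 1 mouse far from the others (the gap to its neighbour over the range of the group exceeded Dixon's critical value of 0.71); chance gives about 1 in 20. Pklr on probe set 1438711_at was 7.72 in POMCMfn2KO 2, below the other 4 mice, and its fall held without that mouse (-0.77). Pfkfb3 on the dim probe set 1456676_a_at was 5.40 in POMCMfn2KO 5, below the other 4. Hs2st1, one of the genes most like Pklr, was 7.93 in POMCMfn2KO 2, the same mouse. Prkar1a was 10.98 in POMCMfn2KO 1, above the others.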

How the results depend on the processing

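The directions of the 6 genes were the same in every alternative run. In the test over genes, the calls of Slc2a2, Gckr, Khk and Pklr held under each filter, scaling and variance model tried. They also held there with the mean of all probe sets and with array weights. Leaving out arrays mattered more. Without 1 array, Slc2a2 ranged from -0.69 to -0.49 and Gckr from -0.65 to -0.49. Without POMCMfn2KO 2 and 3 together the values were -0.58 (Slc2a2), -0.50 (Gckr) and -0.50 (Khk), none past the threshold. The calls of Txnip, Srebf1, Bhlhe40, Ldhd and Slc16a7 held in all 17 alternatives, also without POMCMfn2KO 2 and 3 together. The number of genes called, 2152, ranged from 820 to 2760 without 1 array and was 640 without POMCMfn2KO 2 and 3; the number of probe sets called, 3303, ranged from 988 to 4481 and was 979. Of the genes of the 8 lists, 15 fell, with 9 to 20 without 1 array and 8 without POMCMfn2KO 2 and 3; 5 rose, with 1 to 8 without 1 array, 2 without POMCMfn2KO 2 and 3, and 9 with array weights. The labels do not say that the replicate numbers pair the mice. With the replicate block, on 3 numbers shared by the groups, Slc2a2 gave -0.70, Gckr -0.71, Khk -0.68 and Pklr -0.90, all past the threshold. In the same run Akr1b8 (limma adjusted p = 0.0814) and Slc2a3 (0.0505) were lost. With arrays centred on their medians or quantile normalized, Slc2a3 was also lost (0.0558 and 0.0557). A filter at a mean of 7 leaves no value for Pfkl and Pfkfb3. Signal over background limits Pfkfb3 and Slc2a3.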
